A study of Mus musculus with 4 samples.

Results

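The proximal end of mouse chromosome 7 was examined for DNA copy number in 4 liver tumours. The window was taken as all probes of the array on chromosome 7 that start below 26.5 Mb (mm9), which gave 1342 of the 169093 probes with a position. The rest of chromosome 7 held 8033 probes, and the autosomes together held 159076. Genomic DNA of each tumour, labelled with Cy5, competed on 1 array with spleen DNA labelled with Cy3, and values are given as log2 of the tumour signal over the reference signal, centred on the autosomal median of its array. The 4 tumours came from 4 untreated C57BL/6J mice, male and of genotype Trp53-/- per the labels, in which the series title places the loss of Trp53 in the liver. The reference was pooled spleen of 3 littermates of the same sex, and the labels give it the genotype Trp53-/- as well. A labelling note gives liver in place of spleen, and the driver of the liver-specific loss, the age of the mice and whether the arrays shared 1 pool are not given in the sources used here. The arrays of tumours 1 and 2 shared a slide, those of tumours 3 and 4 shared another, and the dyes were not swapped on any array.

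This end of chromosome 7 holds families of near-identical genes in tandem. V1r and V2r genes encode vomeronasal receptors, which detect pheromones. Obox genes encode homeobox proteins of the oocyte, zinc finger genes of the Zfp families encode DNA-binding proteins, and Psg genes encode pregnancy-specific glycoproteins of the placenta. Gene families of this kind are known to differ in copy number between mouse strains, and a probe placed in one can match several copies.

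The probes that carried the results are shown first. At 2 single probes the ratio lay farthest from 0, and they were chosen after their values were seen. A_67_P06131178 lies at chr7:17697229-17697288 under the array's name BC030357, and A_67_P06131915 lies at chr7:18427389-18427448 with no gene name. No base is set in capitals here, since no stretch of a probe was singled out.

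A_67_P06131178: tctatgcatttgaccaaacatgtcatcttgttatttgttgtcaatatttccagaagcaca
A_67_P06131915: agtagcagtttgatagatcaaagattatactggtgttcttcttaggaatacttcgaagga

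The next 3 probes are those of a short run at Crxos1, a homeobox gene next to the Obox genes, at chr7:16488440-16489975. The first carries the name Crxos1 and the others have no gene name.

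A_67_P09518409: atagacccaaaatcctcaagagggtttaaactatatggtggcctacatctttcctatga
A_67_P09518413: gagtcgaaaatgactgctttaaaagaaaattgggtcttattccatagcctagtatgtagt
A_67_P09518414: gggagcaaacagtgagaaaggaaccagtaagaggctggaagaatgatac

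The last 5 probes form the only stretch with a run in 3 tumours, in a thinly covered interval at chr7:21316760-23368507 with no gene name on the array.

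A_67_P06136869: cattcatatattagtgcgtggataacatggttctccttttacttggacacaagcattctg
A_67_P06136886: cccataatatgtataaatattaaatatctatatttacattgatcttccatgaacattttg
A_67_P06136933: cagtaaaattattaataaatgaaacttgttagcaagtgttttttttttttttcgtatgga
A_67_P09561964: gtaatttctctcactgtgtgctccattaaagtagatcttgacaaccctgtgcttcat
A_67_P06137565: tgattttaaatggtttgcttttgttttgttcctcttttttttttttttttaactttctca

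These 5 differed in base composition, with a GC content of 21.7% to 40.4%, and 2 of them held a run of at least 10 equal bases. The same 2 were the only ones with such a run among the 47 probes described below as opposite, which include all 5. Such runs were present in 17 of the 1295 other window probes and in 47 of the 8033 probes of the rest of chromosome 7. A word of 20 bases was shared with another probe of its own set by 8 window probes and by 29 probes of the rest of the chromosome. The strand, exon or intron of a probe was not annotated in the files.

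Coverage of the window was uneven. Its probes ran from 3049177 to 26491610, with a median gap of 7916 bp, against 9792 bp in the rest of chromosome 7. The window had 6 gaps over 500 kb, which summed to 6.52 Mb, and the rest of the chromosome had 2, which summed to 8.38 Mb. The widest gaps of the window lay between 21569797 and 23368448 (1.80 Mb) and between 7812074 and 9590761 (1.78 Mb). Of the window probes, 765 carried one of 321 gene names. RefSeq symbols (GRCm38.p6) matched 205 of these names directly and 52 through a synonym, and 64 were not matched.

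Array quality differed between tumours. The noise SD, from differences between neighbouring autosomal probes, was 0.12, 0.37, 0.15 and 0.15 (log2) for tumours 1 to 4. The threshold of 0.5 used here, a ratio of 1.41, was 4.16, 1.37, 3.44 and 3.27 times that noise. Tumour 2 was therefore measured far less precisely than the others. The share of spots well above background in both channels was 99.8%, 98.9%, 99.98% and 99.6% on the arrays of tumours 1 to 4.

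No shift of the window as a whole was detected. The mean over its probes was -0.086, 0.079, -0.015 and 0.018 (log2) for tumours 1 to 4, against -0.069, 0.011, 0.012 and 0.0051 in the rest of chromosome 7. The difference averaged 0.0094 ± 0.043 (SD, n = 4) and was above 0 in 2 of 4 tumours (exact two-sided sign-flip permutation test, p = 0.875, adjusted over 3 window results 0.875). It was -0.017 and 0.068 within the slide of tumours 1 and 2, and -0.027 and 0.013 within that of tumours 3 and 4. The sign of this average depended on tumour 2: without it the average was -0.010.

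Single probes of the window lay far from 0 more often than elsewhere on the chromosome. The share of probes at or beyond 0.5 in either direction was 6.18%, 22.7%, 2.24% and 5.44% of window probes in tumours 1 to 4. In the rest of chromosome 7 it was 1.32%, 20.3%, 0.822% and 1.03%, and over all autosomal probes 0.632%, 19.3%, 0.899% and 1.38%. The window exceeded the rest of the chromosome by 3.25 ± 1.65 percentage points (SD, n = 4), in 4 of 4 tumours and so on both slides. The exact two-sided sign-flip p was 0.125, the smallest that 4 tumours allow, and 0.188 after adjustment, so the design could not pass 0.05. The SD of probe values was 0.32, 0.42, 0.27 and 0.36 in the window, against 0.18, 0.40, 0.16 and 0.18 in the rest of chromosome 7. It was higher in the window by 0.11 ± 0.070 (SD, n = 4), in 4 of 4 tumours (exact sign-flip p = 0.125, adjusted 0.188).

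The direction of these probes differed between tumours. In tumour 1, 69 window probes were at or below -0.5 and 14 at or above 0.5, with autosomal shares of 0.446% and 0.186%. In tumour 2 there were 102 low and 202 high window probes, beside 10.5% and 8.8% of autosomal probes. In tumour 3 there were 28 low and 2 high, beside 0.776% and 0.123%. In tumour 4 there were 27 low and 46 high, beside 0.937% and 0.44%. Low probes thus outnumbered high ones in tumours 1 and 3, and high ones outnumbered low ones in tumours 2 and 4. Over all autosomal probes low ones outnumbered high ones in each tumour, so tumours 1 and 3 leaned in the window as they did elsewhere.

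A moderated test for a shift of the same sign in all tumours found none. With limma and Benjamini-Hochberg adjustment over 159059 autosomal probes, 0 of 1342 window probes passed an adjusted p of 0.05 in either direction, as did 0% of autosomal probes. At an unadjusted p under 0.05 there were 193 window probes (14.4%), below the autosomal share of 18.3%. Of the 169 window genes with at least 2 probes, 0 passed with limma, again beside 0% of 13387 autosomal genes. At an unadjusted p under 0.05 there were 25 (14.8%), beside 19% of autosomal genes. The counts of 0 rested on the settings: 205 window probes and 12 genes passed after normexp background correction, beside 16.7% of autosomal probes and 10.97% of autosomal genes. With slide as a random block, 76 window probes (30 higher, 46 lower) and 8 genes passed, 5.66% and 4.73% of the window, below the autosomal shares of 9.07% and 8.32%. Without tumour 2, 4 window probes and 4 window genes passed, 0.298% and 2.37% of the window, below the autosomal shares of 0.561% and 8.69%.

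Many of these probes were low in 1 tumour and high in another. Taking the pair of tumours 1 and 4, a choice made after their values were seen, 40 window probes were low in tumour 1 and high in tumour 4, where the autosomal share was 0.078%. Another 7 were high in tumour 1 and low in tumour 4 (autosomal share 0.0396%), while 3 were low in both and 0 high in both. Together 47 of 1342 window probes were opposite (3.50%), against 13 of 8033 in the rest of chromosome 7 (0.162%) and 0.118% of autosomal probes. The window held 0.844% of the autosomal probes and 25.1% of the 187 autosomal probes that were opposite in this pair. These 2 tumours lay on different slides.

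Tumour 3 was not used to choose the 47 probes and had the sign of tumour 1 at 45 of them. The same count was not made for the other window probes. At the 40 probes low in tumour 1, the median was -0.49 in tumour 3, with 39 below 0 and 20 at or below -0.5, and 0.0040 in tumour 2, with 19 below 0 and 21 above. At the 7 probes high in tumour 1, the median was 0.26 in tumour 3, with 6 above 0, and -0.19 in tumour 2, with 2 above 0. Tumour 3 thus had the direction of tumour 1 at most of these probes, and tumour 2 lay on either side of 0. Sizes in tumour 1 are not compared with those in tumour 3, since the probes were chosen for their values in tumour 1.

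Counts over the whole window rested largely on the same probes. Low in both tumours 1 and 3 were 22 window probes, 20 of them among the 47, beside 0.0453% of autosomal probes. Low in tumour 3 and high in tumour 4, on 1 slide, were 21 window probes, 20 of them among the 47, beside 0.0547% of autosomal probes. Over 1342 window probes Pearson's r was 0.69 for tumours 1 and 3, -0.70 for tumours 1 and 4 and -0.61 for tumours 3 and 4. Over the rest of chromosome 7 these values were -0.073, -0.043 and 0.32, and over the autosomes outside the window 0.20, 0.21 and 0.39. Without the 47 probes, r in the window was 0.27, -0.14 and 0.066, so the window values rested on few probes. The 47 were chosen for opposite values in tumours 1 and 4, so a weaker r for that pair was built into leaving them out. The same step took large values of tumours 1 and 4 out of the other pairs, which can weaken their r as well. These coefficients describe probes that share arrays, and possibly reference DNA, and carry no test.

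The opposite probes were spread over much of the window, from 5998821 to 25005157, and 31 of the 47 had no opposite neighbour. By position, 24 of them lay between 16 and 20 Mb, among 348 window probes, and 15 between 21 and 25 Mb, among 71. From 3 to 6 Mb, where the leukocyte receptor genes lie, 1 of 277 was opposite. Their median GC content was 36.7%, as in the other window probes. Gene names stood beside 24 of the 47, from 19 genes.

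In genes with further probes, the opposite value was usually that of a single probe. Of the 19 genes, 11 had other probes, and in all 11 the mean of those, which excludes opposite probes by construction, lay between -0.5 and 0.5 in tumours 1, 3 and 4. Grlf1, which encodes a GTPase-activating protein, had 1 opposite probe among 13, at -0.75, -0.25, -0.77 and 0.72 in tumours 1 to 4. Its other 12 probes averaged -0.041, -0.018, -0.0066 and -0.059. Vasp, a regulator of actin filaments, had 1 opposite probe among 4, at -0.67, 0.12, -0.38 and 0.73, while its other 3 averaged 0.14, 0.31, 0.048 and -0.14. Rtn2, a reticulon of the endoplasmic reticulum, had 1 among 3, at -1.46, -0.095, -0.85 and 0.88, while the other 2 averaged 0.16, -0.62, -0.23 and -0.21.

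The most extreme probe, A_67_P06131915, read -3.84, -0.075, -4.80 and 5.38 in tumours 1 to 4. The tumour channel was not well above background on the array of tumour 3, and the reference channel was not on that of tumour 4, so those values are only nominal. With the lowest signal among probes well above background in the dim channel as a floor, the reference was at least 6.14-fold brighter for tumour 3 and the tumour at least 8.05-fold brighter for tumour 4. A_67_P06131178 of BC030357 read -3.47, -0.28, -3.39 and 4.47. Its bounds were at least 5.75-fold brighter in the reference for tumour 3 and at least 4.68-fold brighter in the tumour for tumour 4. The other 2 probes of BC030357 averaged -0.14, 0.083, -0.063 and -0.13, near 0 in each tumour.

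Runs of neighbouring probes were few. A run was taken as at least 3 consecutive probes all at or above 0.5 or all at or below -0.5. Runs are called gains or losses by the sign of the ratio alone, whichever channel moved. The window held 3, 5, 1 and 3 runs in tumours 1 to 4, or 2.24, 3.73, 0.745 and 2.24 per 1000 probes. The rest of chromosome 7 held 4, 28, 1 and 1, or 0.498, 3.49, 0.124 and 0.124 per 1000 probes. Runs in tumour 2 were as frequent over the autosomes outside the window, at 3.34 per 1000 probes, whereas tumours 1, 3 and 4 had 0.114, 0.0444 and 0.0951 there. Both runs of losses and of gains occurred, but each tumour had only one kind in the window. These were losses in tumours 1 and 3 and gains in tumours 2 and 4. Over the autosomes outside the window, gain and loss runs numbered 1 and 17, 316 and 211, 5 and 2, and 13 and 2 in tumours 1 to 4. Tumours 1, 2 and 4 thus leaned the same way there, and tumour 3 had only 1 run in the window. Most window probes past the threshold stood alone, 60 of 83, 215 of 304, 27 of 30 and 54 of 73 in tumours 1 to 4.

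Joined over tumours, the runs formed 9 stretches. The stretch at 21316760-23368507 was the only one with a run in 3 tumours. Its 5 probes averaged -1.80, 0.14, -1.07 and 1.89 in tumours 1 to 4, with a run of all 5 in tumour 1, of 3 in tumour 3 and of all 5 in tumour 4. All 5 probes were below 0 in tumours 1 and 3 and above 0 in tumour 4, while tumour 2 had values on both sides of 0, from -0.60 to 0.87. Gaps of 228 kb and 1.80 Mb split the 5 probes into groups of 2, 2 and 1, so nothing was measured over most of this length. With runs broken at gaps over 100 kb, none of the 3 tumours kept a run there.

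At Crxos1, a run of 3 probes over 1.54 kb was a loss in tumour 1 and a gain in tumour 4. The 3 probes averaged -0.81, -0.38, -0.49 and 0.70 in tumours 1 to 4. The run of tumour 4 was lost when arrays were centred on the rest of chromosome 7 or the intensity trend was removed, as one probe was at 0.51, close to the threshold. Over all 8 probes named Crxos1, which lie from 16481898 to 16488498, the mean was -0.25, -0.087, -0.33 and 0.34, and 3 of them were opposite. The gene as a whole averaged -0.084 ± 0.30 (SD, n = 4; limma adjusted p = 0.674).

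At 17227372-17244549, 3 probes without a gene name formed a gain run in tumour 4 and averaged -1.30, 0.34, -0.53 and 1.44 in tumours 1 to 4. Centring on the rest of chromosome 7 ended this run as well, with its lowest probe at 0.51. The mean rested on the third probe, at -2.74, -0.032, -1.50 and 2.89. At 17839715-18013904, 5 probes, one of them named AK132898, formed a loss run in tumour 1 and averaged -0.99, -0.12, -0.36 and 0.69. Tumours 1 and 4 had opposite signs of the mean at both stretches.

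The 5 gain runs of tumour 2 had no run in any other tumour, and all 5 were lost when the intensity trend was removed. They lay at AK082200 and Ttyh1 (0.58 in tumour 2), at 16435783-16447469 without a gene name (0.88), at AK017261, Tmem160 and Npas1 (0.77), at Ptgir and Calm3 (0.67), and at Bloc1s3 and Trappc6a (0.72). In the other tumours the means of these stretches lay between -0.33 and 0.24. Ttyh1 encodes a chloride channel, Npas1 a neuronal transcription factor, Ptgir the prostacyclin receptor and Calm3 calmodulin.

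The signal of each channel was compared with the autosomal median of that channel on the same array (log2 units). At the sparse stretch the tumour channel read 0.31, 1.51, 0.37 and 1.99 on the arrays of tumours 1 to 4, and the reference channel read 2.11, 1.36, 1.43 and 0.089. At the Crxos1 stretch the tumour channel read 0.082, -0.014, -0.074 and 0.70, and the reference channel 0.89, 0.35, 0.40 and -0.0044. Both channels moved: the reference was highest on the array of tumour 1 and lowest on that of tumour 4. At A_67_P06131915 the tumour channel read -3.95, -1.23, -6.04 and -0.14, and the reference channel -0.11, -1.18, -1.25 and -5.53. Over the 40 probes low in tumour 1 and high in tumour 4, the median of the tumour channel was -0.33, 0.061, -0.43 and 0.45, and that of the reference channel 0.55, 0.13, 0.18 and -0.49. All of these were picked on the ratios themselves, low in tumour 1 and high in tumour 4. Such a choice favours a reference that is high for tumour 1 and low for tumour 4. A difference in the tumour and a difference in the reference DNA enter the ratio alike, and the part of each was not tested.

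The gene families were compared by their probes. The 10 lists were matched on the array's own gene names. The list of Sult2a sulfotransferases was therefore empty, although C730007P19Rik, EG434121, EG629219 and 2810007J24Rik match Sult2a2, Sult2a4, Sult2a6 and Sult2a8 by synonym. None of these genes read beyond 0.5 in any tumour. Genes that match Vmn1r90, Obox7, Lilra5, Zfp865 and Zfp954 by synonym were left out of their lists too. V1r receptors (16 genes, 19 probes) averaged -0.083, 0.038, -0.026 and 0.061 in tumours 1 to 4, and 1 probe, at V1rd18, was opposite. V1rd18 read -0.70, 0.28, -0.35 and 0.81. The 4 V2r genes (5 probes) averaged -0.16, 0.18, -0.070 and 0.16, with 0 opposite. Over the window 3.50% of probes were opposite, so counts of 0 or 1 in small lists are not read as a difference. No average of either receptor family lay farther than 0.18 from 0 in any tumour, but single genes did. In tumour 2, Vmn2r53 read -1.17, Vmn2r55 1.04 and V1rd9 -1.23, from 1 probe each. Beyond 0.5 were 0%, 60%, 20% and 20% of the 5 V2r probes in tumours 1 to 4. For the V1r probes these shares were 5.26%, 15.8%, 0% and 5.26%, and for all window probes 6.18%, 22.7%, 2.24% and 5.44%.

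The 3 genes with an Obox name on the array (13 probes) averaged 0.11, 0.38, 0.080 and -0.080, and 0 of their probes were opposite. EG194588, which matches Obox7, was not among them and read 0.15, 0.12, -0.080 and 0.076 from 1 probe. Obox3 (7 probes) read 0.23, 0.40, 0.22 and -0.13, which averaged 0.18 ± 0.22 (SD, n = 4; limma adjusted p = 0.287). The mean over Crxos1 had the other sign to Obox3 in each tumour, a difference that was not tested. This did not hold for each Obox gene. Obox6 (5 probes), nearer to Crxos1, read -0.049, 0.43, -0.075 and -0.039, with the sign of Crxos1 in tumours 1 and 3. Obox5 (1 probe) had that sign in tumours 2, 3 and 4.

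Zinc finger genes were the most numerous list with a family name. Their 32 genes (57 probes) averaged -0.090, 0.10, -0.0057 and -0.0048, and 1 probe, at Zfp111, was opposite, at -0.90, -0.22, -0.32 and 0.64. At or beyond 0.5 were 3.51%, 19.3%, 0% and 3.51% of the 57 probes, beside 6.18%, 22.7%, 2.24% and 5.44% of all window probes. In a list of this size that gap amounts to few probes and is not read as a difference. Zfp787 (4 probes) read -0.18, 0.42, 0.026 and 0.13, and Zfp579 (1 probe) -0.27, 1.06, 0.13 and 0.093.

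The 6 Nlrp genes (26 probes), a family with maternal factors of the oocyte such as Nlrp5, averaged -0.084, 0.083, -0.018 and 0.12. Beyond 0.5 were 11.5%, 19.2%, 3.85% and 11.5% of these probes, beside 6.18%, 22.7%, 2.24% and 5.44% of all window probes, and 3 of the 26 were opposite. Nlrp4c (5 probes) read -0.42, 0.23, -0.11 and 0.44 as a gene, and 2 of its probes were low in tumour 1 and high in tumour 4. Nlrp4e (4 probes) read 0.18, 0.26, 0.16 and -0.14, and its opposite probe ran the other way, at 0.97, 0.26, 0.41 and -1.10. Members of this family thus had opposite probes of both directions.

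The 18 Psg and Ceacam genes (24 probes) averaged -0.15, 0.11, -0.033 and 0.10. Psg27 read -0.69, 0.42, -0.29 and 0.98, and Ceacam13 -0.82, 0.091, -0.43 and 0.55, each from 1 probe and each opposite in tumours 1 and 4. The 6 leukocyte receptor genes (11 probes), which lie at the start of the window, averaged -0.017, 0.12, 0.077 and -0.12, with 0 opposite. Pira1, an activating immunoglobulin-like receptor of myeloid cells, read 0.48, 0.62, 0.20 and -0.40 from 1 probe.

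The 40 genes listed as single-copy (91 probes) averaged -0.11, 0.12, -0.0045 and -0.038, and 1 probe, at Vasp, was opposite. Beyond 0.5 were 5.49%, 29.7%, 0% and 2.20% of these probes. Grik5 (7 probes), a kainate receptor subunit, read -0.13, 0.15, -0.036 and -0.042. Prpf31 (4 probes), a splicing factor, read 0.019, 0.20, 0.00083 and -0.064. Sae1 (5 probes), a subunit of the SUMO-activating enzyme, read -0.090, -0.055, -0.063 and -0.090, the same side of 0 in each tumour, averaging -0.075 ± 0.018 (SD, n = 4; limma adjusted p = 0.316). In all lists with members, 0 genes passed limma. Probes without a gene name (577) held 23 of the 47 opposite probes, and names in no list (511 probes) held 13.

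The probe on each side of the window's end was within the threshold. The last probe inside, of X53654, read -0.051, 0.15, 0.23 and -0.40, and the first outside, of Ccdc97, read 0.012, 0.43, 0.15 and 0.11. The next probe outside, of Hnrpul1, read -0.12, -1.35, -0.075 and -0.060, past the threshold in tumour 2. Just beyond the end, 11 probes at the Cyp2b genes (26789486-26973242) held 11 of the 13 opposite probes of the rest of chromosome 7. They averaged -2.44, 0.14, 0.043 and 0.84 in tumours 1 to 4, so tumour 3 lay near 0 there, beside its median of -0.49 at the 40 window probes low in tumour 1; this difference was not tested.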

How the data were processed

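Comparative genomic hybridization arrays of 4 tumours, 1 array each, were analysed as 1 group. The deposited processed intensities had been corrected for background and spatial trend and scaled between dyes by Agilent Feature Extraction 12.0.1.1, per the file headers (12.0.0 per the submitters' processing notes), with positions on mm9. The deposited mean and background intensities were used only for normexp (offset 50). The deposited log10 ratio served to check the direction, and lay within 0.001 of the ratio of processed intensities at 99.7% or more of spots on each array.

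From these, log2 of red over green was taken. Spots marked as non-uniform or as population outliers were left out (1, 2, 1 and 3 in the window), replicate spots were averaged, and arrays were centred on the autosomal median, with no loess. Probes and genes with at least 2 probes were tested against 0 with limma 3.58.1 (R 4.3.3), which leaves out the spread of the reference. Window contrasts were tested by exact sign-flips over tumours. Segments came from penalised least squares. The arrays' number limits precision. Python 3.11.15, numpy 2.4.6, pandas 2.3.3 and statsmodels 0.14.6 were used. limma and the run finder were tested on simulated data.

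The members, lists and tests were chosen with earlier results of these data known. Named were up to 5 stretches per tumour with the most run probes, up to 4 genes per list with the largest value in any tumour, and for the single-copy list the 4 with the most probes; not all of these are described. Alternatives covered background, centring, spot filters, intensity trend, window end, thresholds, run length, slide as a random block and leaving out each tumour.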

Additional observations from a re-analysis of the deposited data

Results flagged for a closer look

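In 5 of 53 results examined over the 4 tumours (9.43%), 1 tumour stood far from the other 3. Chance alone meets this test in about 1 in 20 groups. That rate does not hold for the stretches and the many genes named for a large value in 1 tumour. In 4 of the 5 results the tumour was tumour 2, the array with the highest noise. At 16435783-16447469 it read 0.88, against 0.11 to 0.20 in the other tumours. At Obox6 it read 0.43 (5 probes), and at Ceacam9 0.76 (1 probe). Lig1, a DNA ligase gene with 5 probes, was lowest in tumour 2 at -0.27. Zfp93 was lowest in tumour 4, at -0.53 from 1 probe.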

How the results depend on the processing

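The share of probes beyond 0.5 and the probe spread kept their direction under each alternative run. Of 33 alternative values of the 3 window contrasts, 31 kept direction and side of the threshold, although no value could pass it. The mean contrast reversed to -0.0100 when the intensity trend was removed and to -0.010 without tumour 2; leaving out each tumour gave -0.010 to 0.022. Window probes past limma numbered 0, but 205 with normexp and 76 with slide as a random block (30 higher, 46 lower; 9.07% of autosomal probes), whose estimated correlation within slides was -0.39; leaving out each tumour gave 0 to 4. Window genes past limma numbered 0, but 12 with normexp and 8 with the slide block (8.32% of autosomal genes), whose correlation was -0.34; leaving out each tumour gave 0 to 4. The 12 runs became 33 with normexp, 7 with the intensity trend removed (5 runs of tumour 2 and 1 of tumour 4 were lost), 46 at a threshold of 0.3, 3 at a threshold of 1, 58 with a minimum of 2 probes and 3 with a minimum of 5; other settings gave 8 to 13. The 47 opposite probes, whose alternatives were all added after the data were seen, became 30 with the window ended at 20 Mb, 83 at a threshold of 0.3 and 13 at a threshold of 1; other settings gave 45 to 54. Of 75 alternative values of stretch means, 74 moved by less than the spread between tumours, and the Bloc1s3 and Trappc6a stretch fell to 0.26 in tumour 2 with the intensity trend removed. The causes were not tested. No paired analysis was possible because the tumours form 1 group. Few probes (18 in the window) were not well above background on at least 1 array, and the noise of tumour 2 limits its single-probe values.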
